A study of Mus musculus with 8 samples.

Results

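The genes described here are those of the proteasome and its helpers, taken as all gene symbols in the deposited tables that read Psm, then a letter from a to g, then a digit. There were 49 such genes among 18790 named genes. Of these, 18 encode subunits of the 20S core and 17 encode subunits of the 19S cap. The others were 7 assembly chaperones, 4 subunits of alternative caps, a copy of an alternative cap gene, the inhibitor Psmf1, and Psmc3ip, whose symbol reads like that of a subunit although its protein serves meiotic recombination. RNA came from the femoral marrow of untreated C57BL/6 mice with a Csf1r-EGFP transgene, in which the promoter of the macrophage growth factor receptor gene drives a green fluorescent protein, so every sample carried the reporter. Cells of the CD11b+ group were sorted as CD11b+F4/80+Ly6G-GFPloVCAM1+ and those of the CD11b- group as CD11b-F4/80+GFP+VCAM1+. Each group had 4 biological replicates, whose age, sex and pooling are not stated in the labels used here. The labels set the word macrophage in quotation marks, and the series title speaks of cells other than macrophages that are coated with pieces of macrophages.

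The proteasome is the protease that degrades proteins tagged with ubiquitin. Its core is a barrel of stacked rings, with alpha subunits at the ends gating the entry and beta subunits in the middle, among which Psmb5, Psmb6 and Psmb7 carry the active sites. The 19S cap binds ubiquitin chains, removes them and unfolds the substrate with a ring of ATPases. In blood cells, and under interferon, the active subunits can be replaced by Psmb8 (in place of Psmb5), Psmb9 (in place of Psmb6) and Psmb10 (in place of Psmb7), which form the immunoproteasome and alter the peptides made for MHC class I.

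Libraries held 36604660 to 47951234 counts for CD11b+ and 27462607 to 35160747 for CD11b-. Apart from Psma8, every member had at least 271 counts in every library. Levels are given as CPM, the count scaled to the total of the library. Marker lists differed widely between the sorts. The 8 neutrophil markers summed to 66931 to 94060 CPM for CD11b+ and 133 to 699 CPM for CD11b-, with 7 called higher in CD11b+, and the 4 primary granule genes to 56835 to 83636 CPM for CD11b+ and 466 to 6735 CPM for CD11b-, with 4 called higher. The 4 eosinophil markers summed to 6390 to 18278 CPM for CD11b+ and 33.6 to 413 CPM for CD11b-, with 3 called higher. The 8 erythroid markers summed to 447 to 873 CPM for CD11b+ and 26123 to 36675 CPM for CD11b-, and all 8 were called lower in CD11b+. Of the 7 cell cycle genes, which summed to 3815 to 4068 CPM for CD11b+ and 10890 to 14104 CPM for CD11b-, 7 were called lower. The 8 B progenitor markers summed to 50.2 to 112 CPM for CD11b+ and 795 to 1721 CPM for CD11b-, with 6 called lower, the 4 plasmacytoid dendritic markers to 28.7 to 36.3 CPM for CD11b+ and 85.7 to 132 CPM for CD11b-, with 3 called lower, and the 5 T and NK cell markers to 1105 to 1516 CPM for CD11b+ and 154 to 323 CPM for CD11b-, with 1 called higher and 3 lower. The 9 resident macrophage markers were found in both sorts, at 1169 to 1521 CPM for CD11b+ and 930 to 1341 CPM for CD11b-, with 2 called higher and 1 lower. No marker of any list was at 0 in all 8 libraries. Apart from the resident macrophage list, whose sums overlapped, the summed lists differ between the same sorts as the members described here. The part of any list in these differences was not tested. In such mixtures, fewer cells of a type and less RNA per cell cannot be told apart.

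The cap and the core of the proteasome gave unlike counts. Of the 17 cap subunits with Psm symbols 9 were called lower in CD11b+ and none higher, whereas of the 18 core subunits 1 was called lower and 1 higher. Shfm1, a cap subunit gene without a Psm symbol that is described below, was called 2.88-fold higher and is not counted here. The median log2 fold change, CD11b+ over CD11b-, was -0.42 for the cap, 0.09 for the core and -0.01 over all 11965 genes tested. All 17 cap subunits had fold changes below 0, except that Psmd14 lay above 0 with totals that left out the 20 most abundant genes and with some libraries left out. Over all 49 members, each of which passed the filter on low counts, 2 were called higher, 16 lower and 31 in neither direction. A gene is called here when its Benjamini-Hochberg adjusted p, from edgeR's quasi-likelihood test over all genes, is under 0.05. The members were called in 36.7% of cases, against 29.7% of all genes tested. They were called higher in 4.08%, against 14.6% of all genes, and lower in 32.7%, against 15.0% of all genes. With totals that left out the 20 most abundant genes, a scaling that moved the median of all genes by 0.11, 3 members were called higher and 10 lower. The medians were then -0.32 for the cap, 0.21 for the core and 0.10 for all genes.

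**Figure D1:**
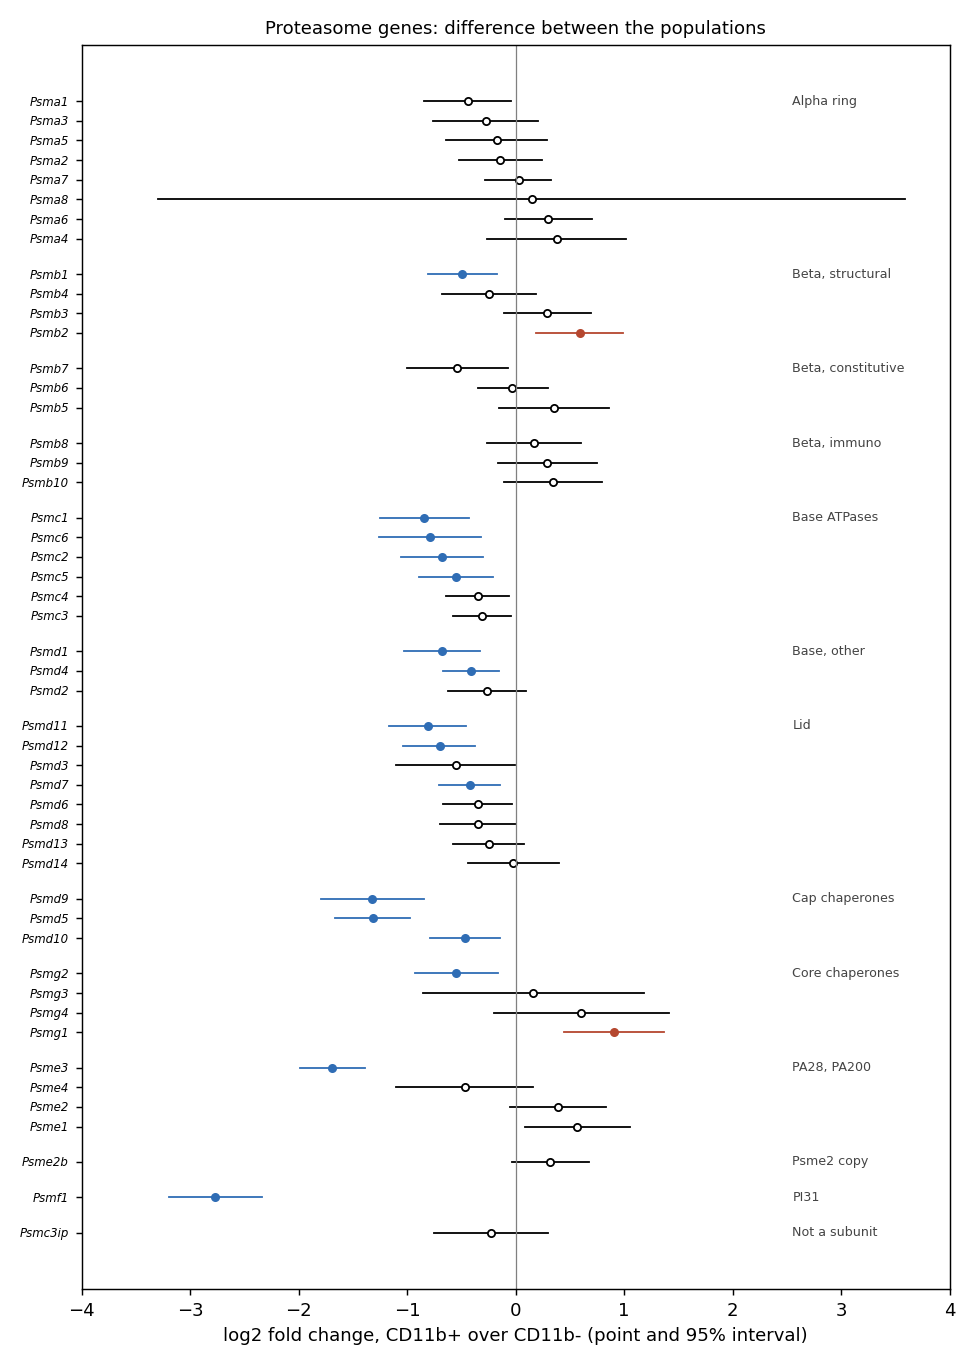
Log2 fold change of each of the 49 members, CD11b+ over CD11b-, with its 95% interval, grouped by role; filled points were called and open points were not. The 17 cap subunits with Psm symbols lie below 0, of which Psmd14 moved above 0 with totals that left out the 20 most abundant genes and with some libraries left out. The core subunits lie on either side of 0.

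The same shift was read within each library, where scaling between libraries has no part. The summed CPM of the cap over that of the core was 1.14, 1.28, 1.11 and 1.09 in the CD11b+ libraries, against 1.67, 1.48, 1.42 and 1.58 in the CD11b- libraries. The highest CD11b+ library thus lay below the lowest CD11b- library. The cap sum holds the 17 subunits with Psm symbols and leaves out Shfm1. That gene averaged 317 ± 20.1 CPM for CD11b+ against 114 ± 16.0 CPM for CD11b- (SD, n = 4). Adding it would narrow the gap, and the ratio was not computed with it. Divided by exon length, this ratio averaged 0.736 ± 0.0578 for CD11b+ against 1.01 ± 0.0613 for CD11b- (SD, n = 4). The core sum averaged 2942 ± 409 for CD11b+ against 3090 ± 51.6 for CD11b-, in CPM and with overlapping groups. The cap sum averaged 3372 ± 292 for CD11b+ against 4759 ± 382 for CD11b-, in CPM and without overlap. Among the CD11b+ libraries, replicate 4 was the highest in 31 of 48 members (Psma8 aside) and in 11 of the 17 cap subunits, and replicate 2 was the lowest in 23 of 48.

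**Figure D2:**
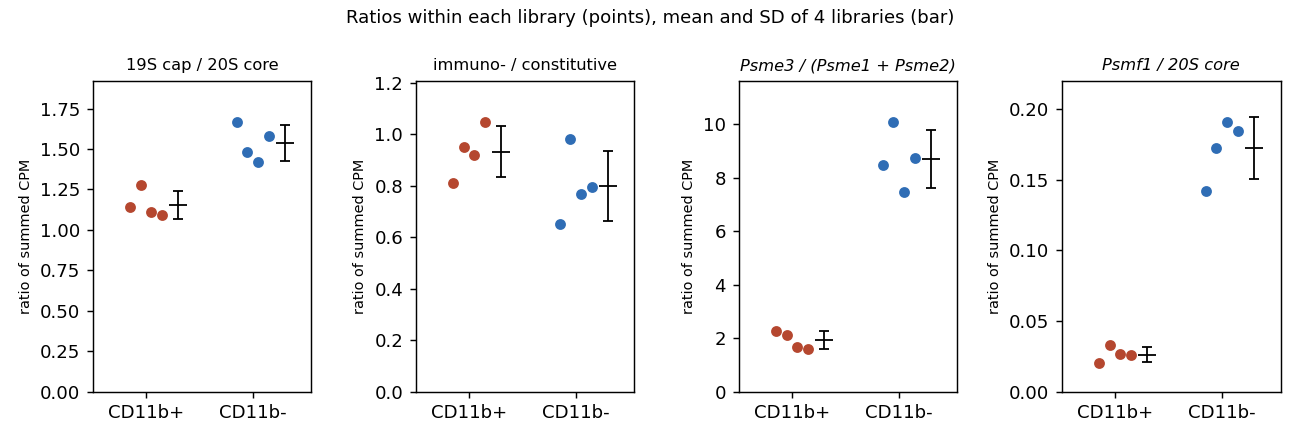
Ratios of summed CPM within each library (points, CD11b+ left and CD11b- right in each panel), with mean and SD of 4 libraries. Cap over core, Psme3 over Psme1 plus Psme2, and Psmf1 over the core did not overlap between the groups, and immunoproteasome over constitutive subunits did. Cap here means the 17 subunits with Psm symbols, without Shfm1.

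The largest difference among the members was that of Psmf1, which encodes PI31, a protein that inhibits the core in the test tube. Psmf1 stood at 58.7, 82.1, 74.7 and 90.4 CPM across the CD11b+ libraries, against 437, 528, 582 and 582 CPM across the CD11b- libraries. All CD11b- libraries lay far above all CD11b+ libraries. Psmf1 was 6.81-fold lower in CD11b+ (log2 fold change -2.77, SE 0.19, adjusted p = 5.80e-06). Relative to the summed core subunits it averaged 0.0262 ± 0.00513 for CD11b+ against 0.172 ± 0.0215 for CD11b- (SD, n = 4). Psme3, Psmd9 and Psmd5 came next in size, and no other member reached a 2-fold difference.

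Psme3 encodes PA28 gamma, a nuclear cap that opens the core without needing ubiquitin. Its levels were 228, 216, 188 and 208 CPM across the CD11b+ libraries, against 638, 735, 641 and 776 CPM across the CD11b- libraries. The groups did not overlap, and the gene was 3.23-fold lower in CD11b+ (log2 fold change -1.69, SE 0.13, adjusted p = 1.26e-05). Psme1 and Psme2 encode PA28 alpha and beta, the cap that interferon induces and that serves antigen presentation. Psme1 was at 58.8, 61.7, 59.6 and 80.3 CPM across the CD11b+ libraries, against 38.5, 37.2, 49.4 and 54.5 CPM across the CD11b- libraries. Its CD11b+ libraries all lay above its CD11b- libraries, yet it was not called (log2 fold change 0.57 with a 95% interval of 0.09 to 1.05, adjusted p = 0.0740, with a range of 0.0325 to 0.314 over the alternative fits). Psme2 was not called either, with 45.8 ± 6.45 CPM for CD11b+ against 35.7 ± 1.07 CPM for CD11b- (SD, n = 4) and no overlap (log2 fold change 0.39 with a 95% interval of -0.05 to 0.83, adjusted p = 0.174), nor was its copy Psme2b, with 101 ± 14.2 CPM for CD11b+ against 82.8 ± 5.23 CPM for CD11b- (SD, n = 4) and overlap (log2 fold change 0.32 with a 95% interval of -0.03 to 0.68, adjusted p = 0.168). Psme2 shares 54.9% of its 50-base stretches with Psme2b, so reads could have been split between them or dropped. The ratio of Psme3 to the sum of Psme1 and Psme2 was 2.28, 2.12, 1.67 and 1.61 in the CD11b+ libraries, against 8.48, 10.1, 7.48 and 8.75 in the CD11b- libraries. These groups lay far apart, and with Psme2b added to the sum the ratio still averaged 1.01 ± 0.190 for CD11b+ against 4.28 ± 0.547 for CD11b- (SD, n = 4). Psme4 encodes PA200, a nuclear cap linked to histone breakdown. It had 18.9 ± 4.50 CPM for CD11b+ against 26.8 ± 0.334 CPM for CD11b- (SD, n = 4), without overlap, and was not called (log2 fold change -0.47 with a 95% interval of -1.10 to 0.16, adjusted p = 0.262).

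Assembly chaperones of the cap base were lower in CD11b+, all 3 being called (100%, against 15.0% of all genes tested called lower). Psmd5 was at 113, 148, 152 and 155 CPM across the CD11b+ libraries, against 346, 322, 377 and 403 CPM across the CD11b- libraries. This was a difference of 2.49-fold (log2 fold change -1.31, SE 0.15, adjusted p = 1.42e-04). Psmd9 was at 33.0, 24.7, 26.0 and 32.9 CPM across the CD11b+ libraries, against 75.0, 91.6, 53.0 and 80.5 CPM across the CD11b- libraries. It too was 2.49-fold lower (log2 fold change -1.32, SE 0.21, adjusted p = 0.00112), and neither gene's groups overlapped. Psmd10 encodes gankyrin, a chaperone also known to bind the retinoblastoma protein. It was 1.38-fold lower, with 68.5 ± 6.77 CPM for CD11b+ against 97.4 ± 8.96 CPM for CD11b- (SD, n = 4) and an adjusted p of 0.0352. That call held with CD11b+ replicate 4 or CD11b- replicate 2 left out and was lost without any of the other 6 libraries (adjusted p of 0.0687 to 0.103).

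Chaperones of the core went both ways. Psmg1 and Psmg2 encode PAC1 and PAC2, partners in the heterodimer on which the alpha ring is built. Psmg1 was at 74.4, 80.4, 75.1 and 85.9 CPM across the CD11b+ libraries, against 42.8, 58.3, 30.3 and 42.1 CPM across the CD11b- libraries. It was 1.88-fold higher in CD11b+ (log2 fold change 0.91, SE 0.20, adjusted p = 0.00744). Psmg2 was at 44.2, 38.9, 47.0 and 45.6 CPM across the CD11b+ libraries, against 62.9, 61.5, 69.9 and 68.4 CPM across the CD11b- libraries. It was 1.46-fold lower in CD11b+ (log2 fold change -0.55, SE 0.17, adjusted p = 0.0384). Neither partner's groups overlapped, and their directions were opposite. The Psmg2 call held with CD11b- replicate 1 left out and was lost without any of the other 7 libraries (adjusted p of 0.0553 to 0.103). Psmg3 and Psmg4, which encode the chaperones PAC3 and PAC4, were not called (log2 fold change 0.16 with a 95% interval of -0.85 to 1.18, adjusted p = 0.838, for Psmg3, and log2 fold change 0.60 with a 95% interval of -0.20 to 1.41, adjusted p = 0.256, for Psmg4).

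**Figure D3:**
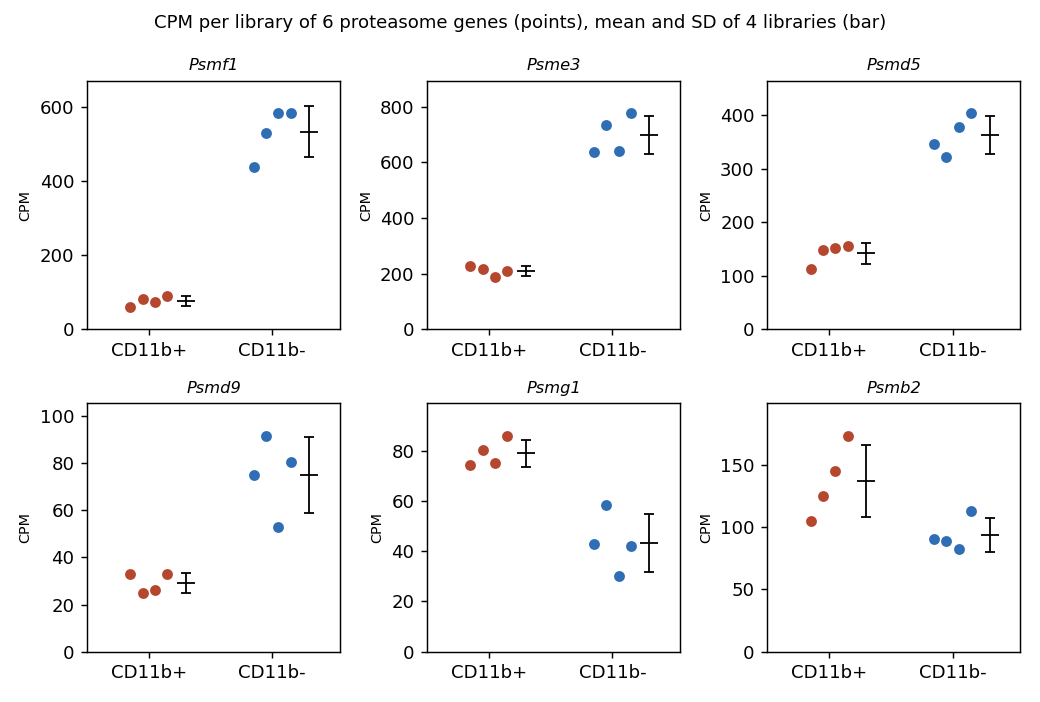
CPM in each library (points, CD11b+ left and CD11b- right) of 6 called members, with mean and SD of 4 libraries. Psmf1, Psme3, Psmd5 and Psmd9 lie lower in every CD11b+ library, Psmg1 lies higher in every CD11b+ library, and the groups of Psmb2 overlap.

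Promoter sequences are shown for the 4 members with at least a 2-fold difference, all lower in CD11b+, and for Psmb8, the most abundant immunoproteasome subunit, which was not called. Each is the 200 bases before the RefSeq transcription start in GRCm38.p6, written 5′ to 3′ on the strand of the gene. Psmf1 lies on the minus strand with this window at chr2:151741311-151741510, Psme3 on the plus strand at chr11:101316013-101316212 and Psmd5 on the minus strand at chr2:34870963-34871162. Psmd9 lies on the plus strand at chr5:123227990-123228189 and Psmb8 on the plus strand at chr17:34197995-34198194. Capitals mark matches to the 4 motifs that were searched.
Psmf1: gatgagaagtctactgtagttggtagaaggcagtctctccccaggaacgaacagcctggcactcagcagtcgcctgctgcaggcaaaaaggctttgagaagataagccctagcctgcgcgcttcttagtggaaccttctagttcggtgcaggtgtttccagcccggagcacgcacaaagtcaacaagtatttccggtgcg
Psme3: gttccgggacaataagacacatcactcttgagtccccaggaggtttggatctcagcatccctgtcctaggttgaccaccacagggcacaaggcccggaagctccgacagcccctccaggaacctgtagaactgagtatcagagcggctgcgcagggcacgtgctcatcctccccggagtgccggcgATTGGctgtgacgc
Psmd5: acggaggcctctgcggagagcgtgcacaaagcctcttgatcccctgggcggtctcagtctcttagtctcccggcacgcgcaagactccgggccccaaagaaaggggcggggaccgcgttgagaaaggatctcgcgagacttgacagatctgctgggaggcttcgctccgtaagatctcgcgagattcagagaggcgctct
Psmd9: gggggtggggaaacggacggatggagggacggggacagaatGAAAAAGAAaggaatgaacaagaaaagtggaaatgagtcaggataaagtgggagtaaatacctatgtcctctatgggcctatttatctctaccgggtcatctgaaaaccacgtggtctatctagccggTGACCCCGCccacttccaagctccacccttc
Psmb8: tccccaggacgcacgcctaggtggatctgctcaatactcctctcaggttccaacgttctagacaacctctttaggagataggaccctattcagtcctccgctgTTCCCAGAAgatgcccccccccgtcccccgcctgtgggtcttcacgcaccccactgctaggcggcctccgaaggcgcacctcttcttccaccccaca

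The motifs were searched on both strands of the RefSeq windows from 250 bases before to 50 after the start, which 41 of the 49 members had. Members were counted by gene, 3 of them with several windows, whereas the share of all windows was counted by window. The antioxidant response element TGACNNNGC, which NRF1, an activator of proteasome genes, can bind, was in the windows of 6 members (14.6%) and in 12.4% of all 32851 windows. Psmd9 held it from -31 to -23 relative to its start. The letters GAAANNGAA, part of the interferon-stimulated response element, were found for 7 members (17.1%) and in 8.56% of all windows. Psmd9 held them from -159 to -151. The gamma-activated site TTCNNNGAA was found for 3 members (7.32%) and in 8.30% of all windows, and Psmb8 held it from -97 to -89. The CCAAT box was found for 14 members (34.1%) and in 37.4% of all windows, and Psme3 held it on the other strand from -14 to -10. Of the 14 core and 14 cap subunits with a window, 7 core and 4 cap subunits held the CCAAT box and 2 of each the antioxidant response element. A match is a description of the letters only. No motif was found in the windows of Psmf1 and Psmd5.

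In the base of the cap, 4 of 6 ATPase genes were called lower in CD11b+ (66.7%, against 15.0% of all genes tested). Psmc1, the ATPase Rpt2, was at 153, 98.1, 133 and 172 CPM across the CD11b+ libraries, against 231, 289, 220 and 283 CPM across the CD11b- libraries. It did not overlap and was 1.78-fold lower (log2 fold change -0.84, SE 0.18, adjusted p = 0.00653). Psmc2 (Rpt1) was 1.60-fold lower, with 199 ± 25.7 CPM for CD11b+ against 329 ± 70.2 CPM for CD11b- (SD, n = 4) and an adjusted p of 0.0131. Psmc6 (Rpt4), the ATPase gene with the lowest CPM, was at 49.5, 48.6, 65.0 and 75.6 CPM across the CD11b+ libraries, against 134, 102, 73.7 and 117 CPM across the CD11b- libraries. Its groups overlapped in 1 library each, and it was 1.72-fold lower (log2 fold change -0.79, SE 0.21, adjusted p = 0.0181). The call was lost without CD11b+ replicate 1 (log2 fold change -0.69, adjusted p = 0.0648), without CD11b+ replicate 2 (-0.70, adjusted p = 0.0588) and without CD11b- replicate 1 (-0.67, adjusted p = 0.0550). Psmc5 (Rpt6) was 1.46-fold lower, with 148 ± 20.5 CPM for CD11b+ against 223 ± 30.5 CPM for CD11b- (SD, n = 4) and an adjusted p of 0.0223. Its call was lost with replicates 1 or 3 of CD11b+, or replicates 1 or 2 of CD11b-, left out (adjusted p of 0.0549 to 0.0755). Psmc3 (Rpt5), the ATPase gene with the highest CPM, was at 413, 467, 431 and 461 CPM across the CD11b+ libraries, against 552, 544, 575 and 587 CPM across the CD11b- libraries. Its groups did not overlap, and it was not called (log2 fold change -0.31 with a 95% interval of -0.58 to -0.04, adjusted p = 0.0811). Psmc4 (Rpt3) was not called either (log2 fold change -0.35 with a 95% interval of -0.64 to -0.06, adjusted p = 0.0725). DESeq2 called both, with an adjusted p of 0.0170 for Psmc3 and 0.0250 for Psmc4. So did limma, with an adjusted p of 0.0320 for Psmc3 and 0.0431 for Psmc4. Over all alternative fits the adjusted p ran from 0.0170 to 0.226 for Psmc3 and from 0.0250 to 0.225 for Psmc4.

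The base also holds scaffold and receptor subunits. Psmd1 (Rpn2), a large scaffold, was at 184, 223, 225 and 287 CPM across the CD11b+ libraries, against 434, 347, 328 and 407 CPM across the CD11b- libraries. Without overlap, it was 1.60-fold lower in CD11b+ (log2 fold change -0.68, SE 0.15, adjusted p = 0.00790). Psmd4 (Rpn10), a receptor for ubiquitin chains, was 1.33-fold lower, with 358 ± 21.1 CPM for CD11b+ against 490 ± 37.1 CPM for CD11b- (SD, n = 4) and an adjusted p of 0.0250. The Psmd4 call was lost with replicates 1, 3 or 4 of CD11b+, or replicates 1 or 3 of CD11b-, left out (adjusted p of 0.0519 to 0.0841). Psmd2 (Rpn1), a scaffold that docks ubiquitin shuttles, had 414 ± 56.3 CPM for CD11b+ against 511 ± 97.4 CPM for CD11b- (SD, n = 4) and was not called (log2 fold change -0.26 with a 95% interval of -0.62 to 0.10, adjusted p = 0.280).

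In the lid, 3 of 8 subunits were called lower in CD11b+ (37.5%, against 15.0% of all genes tested). Psmd11 (Rpn6), which clamps the cap to the core, was at 138, 120, 119 and 160 CPM across the CD11b+ libraries, against 291, 197, 213 and 271 CPM across the CD11b- libraries. It did not overlap and was 1.76-fold lower (log2 fold change -0.81, SE 0.16, adjusted p = 0.00359). Psmd12 (Rpn5) was 1.63-fold lower, with 168 ± 23.9 CPM for CD11b+ against 283 ± 41.7 CPM for CD11b- (SD, n = 4) and an adjusted p of 0.00530. Psmd7 (Rpn8), the partner of the lid's deubiquitinase, was 1.34-fold lower, with 162 ± 15.8 CPM for CD11b+ against 223 ± 27.3 CPM for CD11b- (SD, n = 4) and an adjusted p of 0.0315. The Psmd7 call was lost with replicates 1, 2 or 3 of CD11b+, or replicates 1 or 3 of CD11b-, left out (adjusted p of 0.0553 to 0.10). Psmd14 (Rpn11), the deubiquitinase itself, was at 205, 180, 144 and 275 CPM across the CD11b+ libraries, against 225, 216, 189 and 204 CPM across the CD11b- libraries. Its CD11b- libraries all lay within the CD11b+ range (log2 fold change -0.02 with a 95% interval of -0.44 to 0.40, adjusted p = 0.965). Psmd3 (Rpn3), the lid gene with the lowest CPM, was at 51.8, 97.3, 54.8 and 82.7 CPM across the CD11b+ libraries, against 95.8, 96.4, 101 and 140 CPM across the CD11b- libraries. Its groups overlapped through CD11b+ replicate 2, and it was not called (log2 fold change -0.55 with a 95% interval of -1.10 to -0.01). Psmd6, Psmd8 and Psmd13 had log2 fold changes of -0.35, -0.35 and -0.25, overlapped and were not called.

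**Figure D4:**
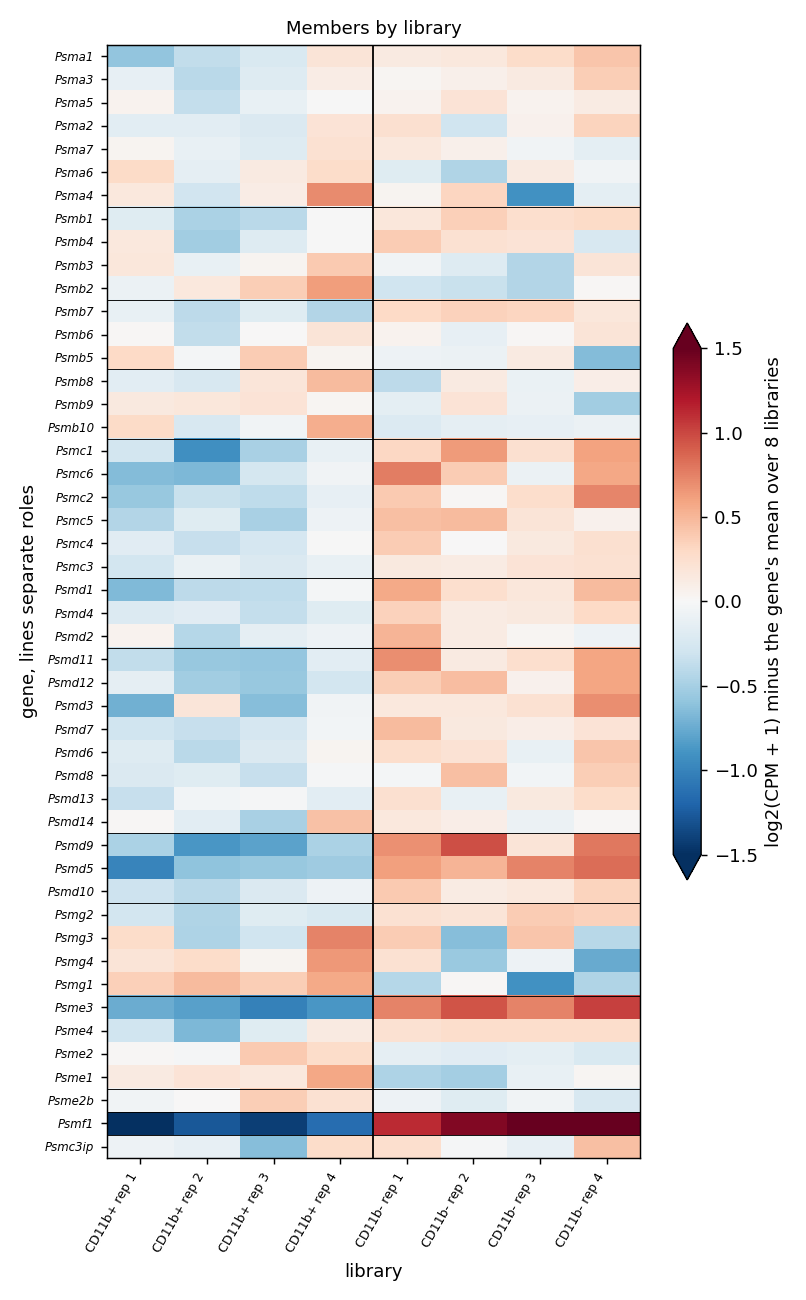
Log2(CPM + 1) of 48 members (rows, by role; Psma8 is left out for its low counts) in each library (columns, CD11b+ left and CD11b- right of the line), less the gene's mean over the 8 libraries. Most rows of the cap and its chaperones are bluer (lower) on the CD11b+ side, Psmg1 is redder (higher) there, and the core rows are mixed.

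In the alpha ring of the core none of the 8 genes was called by edgeR or DESeq2, and limma called Psma1. Psma7, its most abundant member, was at 586, 527, 500 and 666 CPM across the CD11b+ libraries, against 634, 603, 551 and 514 CPM across the CD11b- libraries. Its groups overlapped (log2 fold change 0.03 with a 95% interval of -0.28 to 0.33, adjusted p = 0.921). Psma1 was at 160, 186, 205 and 276 CPM across the CD11b+ libraries, against 265, 269, 293 and 323 CPM across the CD11b- libraries. CD11b+ replicate 4 alone reached into the CD11b- range (log2 fold change -0.44 with a 95% interval of -0.84 to -0.04, adjusted p = 0.0953). Over the alternative fits that adjusted p ran from 0.0237, without CD11b+ replicate 4, to 0.243. Psma4 had the highest fold change of the ring, with 67.6 ± 20.2 CPM for CD11b+ against 53.7 ± 17.7 CPM for CD11b- (SD, n = 4), and was not called (log2 fold change 0.38 with a 95% interval of -0.26 to 1.02, adjusted p = 0.376). Psma8, a paralog of Psma7 used in the male germ line, was barely detected, at 4.02, 0.203, 0.876 and 2.60 CPM across the CD11b+ libraries, against 0.561, 0, 4.03 and 2.29 CPM across the CD11b- libraries. The 0 in CD11b- replicate 2 allows up to 0.0857 CPM (3 counts), a limit that covers counting error only. The log2 fold changes of Psma2, Psma3, Psma5 and Psma6 were -0.14, -0.27, -0.17 and 0.30, and none of these was called.

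Of the 4 beta subunits outside the exchangeable catalytic set, Psmb1 and Psmb2 were called in opposite directions. Psmb1 was at 330, 268, 283 and 372 CPM across the CD11b+ libraries, against 420, 480, 446 and 458 CPM across the CD11b- libraries. It did not overlap and was 1.40-fold lower in CD11b+ (log2 fold change -0.49, SE 0.14, adjusted p = 0.0257). Psmb2 was at 105, 125, 145 and 173 CPM across the CD11b+ libraries, against 90.4, 88.4, 81.9 and 113 CPM across the CD11b- libraries. CD11b+ replicate 1 lay below CD11b- replicate 4, and the gene was 1.50-fold higher in CD11b+ (log2 fold change 0.59, SE 0.18, adjusted p = 0.0316). With replicates 2 or 3 of either group left out the Psmb1 call was lost (adjusted p of 0.0605 to 0.0834). Psmb2 kept its call with CD11b+ replicate 1 or CD11b- replicate 4 left out and lost it without any of the other 6 libraries (adjusted p of 0.0518 to 0.0847). Psmb3 was not called (log2 fold change 0.29 with a 95% interval of -0.11 to 0.69, adjusted p = 0.270), nor was Psmb4 (log2 fold change -0.25 with a 95% interval of -0.68 to 0.19, adjusted p = 0.401).

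None of the 6 catalytic subunits that exchange for each other was called by edgeR. The immunoproteasome subunit Psmb8 was at 279, 264, 352 and 431 CPM across the CD11b+ libraries, against 236, 343, 291 and 333 CPM across the CD11b- libraries. Its groups overlapped (log2 fold change 0.17 with a 95% interval of -0.26 to 0.60, adjusted p = 0.564). Psmb9 was at 65.5, 66.4, 67.9 and 60.0 CPM across the CD11b+ libraries, against 53.1, 68.2, 55.2 and 40.7 CPM across the CD11b- libraries. All its CD11b+ libraries lay within the wider CD11b- range (log2 fold change 0.29 with a 95% interval of -0.16 to 0.75, adjusted p = 0.330). Psmb10 was at 78.7, 54.4, 62.0 and 94.8 CPM across the CD11b+ libraries, against 55.8, 58.8, 59.1 and 60.7 CPM across the CD11b- libraries. CD11b+ libraries lay both above and below the narrow CD11b- range (log2 fold change 0.34 with a 95% interval of -0.11 to 0.80, adjusted p = 0.255). The upper ends of these intervals allow a log2 fold change of up to 0.80, so equal levels were not shown.

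The constitutive counterparts also went uncalled. Psmb5 was at 81.3, 64.3, 85.8 and 67.6 CPM across the CD11b+ libraries, against 62.5, 62.2, 72.6 and 41.5 CPM across the CD11b- libraries. Its groups overlapped (log2 fold change 0.35 with a 95% interval of -0.15 to 0.86, adjusted p = 0.294). Psmb6 was at 407, 313, 406 and 462 CPM across the CD11b+ libraries, against 420, 370, 407 and 463 CPM across the CD11b- libraries. The groups nearly coincided apart from CD11b+ replicate 2 (log2 fold change -0.03 with a 95% interval of -0.35 to 0.30, adjusted p = 0.920). Psmb7 was at 34.1, 27.7, 32.3 and 26.8 CPM across the CD11b+ libraries, against 45.4, 47.0, 46.2 and 41.4 CPM across the CD11b- libraries. Its CD11b+ libraries all lay below its CD11b- libraries, and it was not called by edgeR (log2 fold change -0.54 with a 95% interval of -1.0 to -0.07, adjusted p = 0.0812), while DESeq2 called it (adjusted p = 0.0334).

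**Figure D5:**
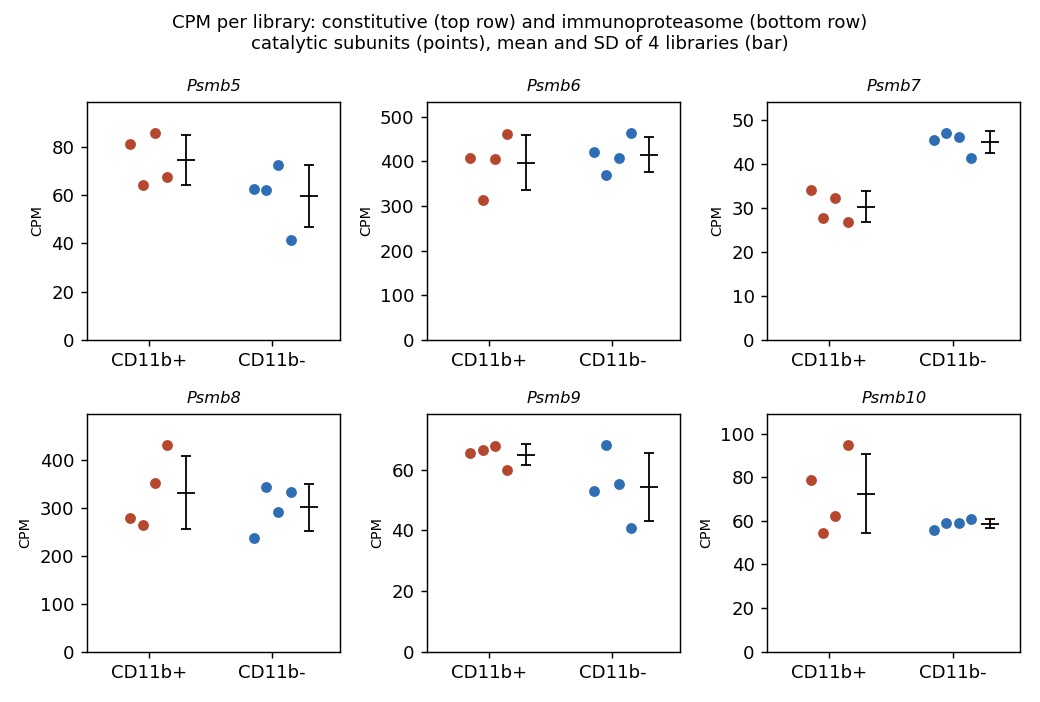
CPM in each library (points, CD11b+ left and CD11b- right) of the constitutive catalytic subunits Psmb5, Psmb6 and Psmb7 (top) and of the immunoproteasome subunits Psmb8, Psmb9 and Psmb10 that replace them (bottom), with mean and SD of 4 libraries. Of these 6 genes, Psmb7 alone has groups that do not overlap.

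Immunoproteasome transcripts stood beside constitutive ones in both sorts. The summed CPM of Psmb8, Psmb9 and Psmb10 over that of Psmb5, Psmb6 and Psmb7 was 0.810, 0.950, 0.920 and 1.05 in the CD11b+ libraries, against 0.653, 0.981, 0.770 and 0.795 in the CD11b- libraries. The groups overlapped, and divided by exon length the ratio averaged 0.506 ± 0.0492 for CD11b+ against 0.434 ± 0.0733 for CD11b- (SD, n = 4). By pair and per length, Psmb8 over Psmb5 averaged 2.49 ± 0.710 for CD11b+ against 2.94 ± 1.08 for CD11b-, and Psmb9 over Psmb6 averaged 0.0989 ± 0.0200 for CD11b+ against 0.0788 ± 0.0234 for CD11b-, with overlap for each pair. Psmb10 over Psmb7, per length, was 2.04, 1.74, 1.70 and 3.13 in the CD11b+ libraries, against 1.09, 1.11, 1.13 and 1.30 in the CD11b- libraries. That ratio did not overlap between the groups. The ratios are given as values per library, with no test.

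Per length, members of one complex stood at very different levels. In CPM per kilobase of exon, Psmb6 averaged 497 ± 77.4 for CD11b+ against 520 ± 48.1 for CD11b- and Psma7 averaged 483 ± 62.3 for CD11b+ against 488 ± 45.4 for CD11b- (SD, n = 4), and these members did not differ from each other beyond their spread. Psmc3 averaged 217 ± 12.5 for CD11b+ against 276 ± 9.71 for CD11b-. Psme3 averaged 78.8 ± 6.16 for CD11b+ against 262 ± 26.1 for CD11b- and Psmf1 19.2 ± 3.38 for CD11b+ against 133 ± 17.2 for CD11b-. At the low end of the core, with the barely detected Psma8 set aside, Psma3 averaged 11.6 ± 1.78 for CD11b+ against 14.4 ± 1.62 for CD11b-. Several members share sequence with other annotated genes, so reads may have been dropped or split. Of the 50-base stretches of their GENCODE M21 transcripts, 55.8% of Psmb3, 55.4% of Psma5, 54.1% of Psmb5 and 22.0% of Psma3 also stand in other genes. Psmb7 shares 28.1% with Nek6. Of the members, 11 shared at least 20% and 23 shared none, among these Psmf1 and Psme3. Among members that share under 10%, 7 of 13 cap subunits were called lower (53.8%) and none higher. Of 12 such core subunits, 1 was called lower (8.33%) and 1 higher (8.33%). Of all genes tested, 15.0% were called lower and 14.6% higher. The median log2 fold changes were -0.42 for these cap subunits and 0.09 for these core subunits. The coefficient of variation between replicates had a median over 48 members of 14.4% for CD11b+ and 13.7% for CD11b-.

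Partners of the proteasome outside the symbol pattern also went both ways. Of 15 such genes tested, 2 were called higher and 5 lower in CD11b+ (46.7% called, against 29.7% of all genes tested). Their median log2 fold change was -0.20, and the list was chosen with earlier results of these data known. Shfm1, which encodes the small cap subunit Sem1, was at 309, 306, 307 and 347 CPM across the CD11b+ libraries, against 132, 105, 96.0 and 122 CPM across the CD11b- libraries. It was 2.88-fold higher in CD11b+ (adjusted p = 1.76e-05), opposite to the 9 called cap subunits of the symbol pattern. Uchl5, a deubiquitinase of the cap, was 1.49-fold higher, with 299 ± 44.8 CPM for CD11b+ against 208 ± 45.1 CPM for CD11b- (SD, n = 4) and an adjusted p of 0.0318, a call kept in 4 of the 8 fits with a library left out. Usp14, another deubiquitinase of the cap, was at 114, 106, 92.2 and 169 CPM across the CD11b+ libraries, against 258, 316, 304 and 343 CPM across the CD11b- libraries. Its groups did not overlap, and it was 2.47-fold lower (adjusted p = 8.09e-04). Txnl1, a thioredoxin-like protein bound to the cap, was 2.27-fold lower (adjusted p = 1.36e-04) and Zfand5, an activator of the proteasome, was 2.39-fold lower (adjusted p = 0.00107). Akirin2, which helps import proteasomes into the nucleus, was 1.93-fold lower (adjusted p = 0.0432), a call kept in 2 of 8 fits with a library left out.

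Of 6 regulators of proteasome gene transcription, 2 were called, and these were lower in CD11b+. The share called, 33.3%, was near the 29.7% of all genes tested in either direction, while 15.0% of all genes were called lower. The called regulators were the CCAAT-binding NF-Y subunits Nfyb and Nfyc. Nfyb had 106 ± 21.3 CPM for CD11b+ against 218 ± 30.9 CPM for CD11b- (SD, n = 4), 2.01-fold lower with an adjusted p of 0.00265. Nfyc had 24.4 ± 2.54 CPM for CD11b+ against 60.3 ± 5.55 CPM for CD11b- (SD, n = 4), 2.42-fold lower with an adjusted p of 0.00111. Of 6 genes for ubiquitin and its activating enzymes, 2 were called lower (likewise 33.3%, with the same shares of all genes beside it). Among them, Ubb had 1360 ± 151 CPM for CD11b+ against 2380 ± 152 CPM for CD11b- (SD, n = 4), 1.71-fold lower with an adjusted p of 0.00241. Ubiquitin genes repeat nearly the same sequence, so their counts are uncertain.

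Of 11 genes of peptide supply to MHC class I, which covers peptidases, transporters, chaperones, the light chain and a transcriptional activator, 3 were called higher in CD11b+ and none lower, with a median log2 fold change of 0.69. The share called, 27.3%, was near the 29.7% of all genes tested in either direction, while 14.6% of all genes were called higher. The peptide editor Tapbpl was at 56.2, 65.1, 52.3 and 57.3 CPM across the CD11b+ libraries, against 26.9, 14.3, 17.2 and 33.6 CPM across the CD11b- libraries. It was 2.60-fold higher (adjusted p = 0.00463). The chaperone Pdia3 was 2.56-fold higher, with 1280 ± 205 CPM for CD11b+ against 512 ± 67.8 CPM for CD11b- (SD, n = 4) and an adjusted p of 1.68e-04. The chaperone Calr was 1.70-fold higher (adjusted p = 0.0403) with overlapping groups, a call kept in 2 of 8 fits with a library left out. The largest fold change of the list went the other way. It was that of Nlrc5, the activator of MHC class I genes, named here after its values were seen, which was at 2.87, 3.52, 5.69 and 0.712 CPM across the CD11b+ libraries, against 18.1, 15.8, 11.6 and 6.37 CPM across the CD11b- libraries. Its groups did not overlap, and it was not called by edgeR (log2 fold change -1.97 with a 95% interval of -3.54 to -0.40, adjusted p = 0.0613), while DESeq2 (adjusted p = 0.0163) and limma (adjusted p = 0.0201) called it lower. The 7 interferon signal genes were a short list chosen by hand, with earlier results of these data known. Of these, 3 were called higher and 3 lower (85.7% called, against 29.7% of all genes tested). Because of that choice, the share called in the list cannot be read as an excess over all genes. Higher were the interferon gamma receptor genes Ifngr1 (4.65-fold, adjusted p = 4.55e-05) and Ifngr2 (3.14-fold, adjusted p = 4.62e-04) and the transcription factor gene Irf1, an activator of immunoproteasome genes. Irf1 was at 67.8, 53.0, 45.6 and 55.0 CPM across the CD11b+ libraries, against 17.8, 25.8, 6.05 and 16.4 CPM across the CD11b- libraries. These groups did not overlap (log2 fold change 1.81, adjusted p = 0.00560). Lower were Irf9 (5.48-fold, adjusted p = 1.11e-04), Irf8 (4.03-fold, adjusted p = 0.00906) and Stat2 (2.10-fold, adjusted p = 0.0221, kept in 4 of 8 fits with a library left out), which encode factors of the interferon response.

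Psmc3ip, which is no subunit, had 47.9 ± 12.3 CPM for CD11b+ against 57.9 ± 10.9 CPM for CD11b- (SD, n = 4) and was not called (log2 fold change -0.23 with a 95% interval of -0.75 to 0.30, adjusted p = 0.533). Members whose groups did not overlap were counted as well. Of the 49 members, 19 had all CD11b+ libraries below all CD11b- libraries (against 18.4% of all genes tested) and 3 had them all above (against 18.1%). For the cap these counts were 10 and 0 of 17, and for the core 2 and 0 of 18. They stand beside the same 18.4% and 18.1% of all genes tested. Psmf1, Psme3, Psmd5, Psmd9, Psmd11, Psmc1, Psmd12, Psmg1, Psmd1 and Psmc2, which make 10 of the 18 called members, were called under each of the 18 alternative fits. The other 8 lost their call in at least 4 of them.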

How the data were processed

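SmartSeq2 libraries of both sorts were sequenced. Whole-number counts per gene symbol were deposited for each library, in files named for FPKM, together with a table of CPM over all libraries. CPM recomputed from the deposited counts and their totals differed from the authors' values by at most 5e-04. The submitters' processing notes list TopHat2, HTSeq 0.10.0, DESeq2 and mm9 without saying what each was used for. The annotation, the strand option and the handling of reads with several matches were not given in the sources used here. As the kit leaves strand unmarked, reads of overlapping genes cannot be told apart.

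Of 18817 rows, 27 carry numbers for symbols (0.205% to 0.514% of counts) and were left out. Counts of all genes were tested with edgeR 4.0.16 (R 4.3.3), using TMM scaling, default filterByExpr (minimum count 10) and the quasi-likelihood F test, from which standard errors were derived. The procedure was tested on simulated data. P-values describe the spread between samples that the design text names biological replicates. Alternatives were DESeq2 1.42.0, limma 3.58.1 on log2(CPM + 1), other scalings, filters and prior counts, the replicate number as a block, and left-out libraries. Exon lengths come from GENCODE M21 by symbol and promoters from RefSeq, both on GRCm38, not mm9.

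Members and lists were chosen with earlier results of these data known. Named were the exchangeable catalytic subunits, alternative caps, inhibitor, assembly chaperones, every called member, the extremes of each remaining role by CPM and fold change, and called genes of the partner lists. Other members are given by their fold changes, and some genes of the partner lists are not reported here. Whether equal replicate numbers pair the samples was not settled. Deviations of equally numbered libraries correlated at 0.02, 0.04, 0.02 and 0.06, but such values between unlike sorts cannot exclude a shared animal or day. Psmb11, the thymus subunit, was not analysed here.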

Additional observations from a re-analysis of the deposited data

Results flagged for a closer look

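A library was singled out where its gap to the nearest of the other 3 libraries of its group exceeded Dixon's 95% limit for 4 values. Of 102 groups examined 4 held such a library, and chance flags about 1 in 20 groups. Psma2 was at 226 CPM in CD11b+ replicate 4 and at 168 to 176 CPM in the other CD11b+ libraries. Psme1 was at 80.3 CPM in the same library and at 58.8 to 61.7 CPM in the others. Psmd3 was at 140 CPM in CD11b- replicate 4 and at 95.8 to 101 CPM in the other CD11b- libraries. Psme4 was at 26.3 CPM in CD11b- replicate 1 and at 26.9 to 27.0 CPM in the others, a group that hardly varied.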

How the results depend on the processing

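Over the 49 members and 18 alternative fits, 804 values kept their direction and call, or were uncalled in both the main and the alternative fit. Another 66 lost a call, 11 gained one and 0 called values changed sign. Members called numbered 18 with RLE factors or without scaling, 13 with no filter or with totals that left out the 20 most abundant genes, 20 with a CPM of at least 10 in 4 libraries, and 21 by DESeq2 and by limma. With the replicate number as a block, 12 members were called, 6 of the cap and 1 of the core. With each library left out in turn, members called ranged from 11 (without CD11b+ replicate 3) to 16. Cap subunits called ranged from 5 (without CD11b+ replicate 1 or CD11b- replicate 1) to 9, and core subunits from 0 (without replicates 2 or 3 of either group) to 2. Without CD11b- replicates 1 and 2, the libraries of that group highest in Mpo, a choice made with earlier results known, 10 members, 5 cap and 0 core subunits were called. The core count was 1 without scaling, without a filter, and with totals that left out the 20 most abundant genes. Leaving out libraries lowers the number of samples, and any other cause was not tested. The cap median less the core median (-0.51) ran from -0.60 to -0.39 over other scalings and left-out libraries and was -0.62 with assembly chaperones and alternative caps counted in, and the difference in log2 ratio of immunoproteasome to constitutive subunits (0.23) from 0.14 to 0.33. Depth limits Psma8 alone among the members.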
